A study of Ovis aries with 30 samples.

Results

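The gene ASIP, which codes for the agouti signalling protein, was followed in epicardial adipose tissue (EAT), the fat on the surface of the heart, of 30 sheep. It is 1 of 1025 genes that the array could be given a name for, read by the 2 of 15008 probes whose annotation says ASIP. ASIP was chosen by its measured range, far wider among lambs than among fetuses, so its levels by age and its split among lambs are given as a description with no test. In 13 of 16 lambs and in all 14 fetuses ASIP was bright, and in 3 lambs it lay at or near the background of the array.

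The tissue came from 4 groups. The Control fetuses (n = 8) were taken at term from ewes that received no cortisol. The CORT fetuses (n = 6) were taken at term from ewes given cortisol at 1 mg/kg/day. The Control lambs (n = 7) and the CORT lambs (n = 9) were 2 weeks old, and the ewes of the CORT lambs had received 0.5 mg/kg/day. Infusion ran from gestational day 115 to term, went to the ewe alone, and had ended before the lambs were sampled, so a CORT lamb carries a past exposure of its mother. The dose differed between the ages, and so may the schedule: the study infused the ewes of the lambs overnight only, and calls its infusion at the higher dose continuous. The study describes the ewes of the lambs as black-faced and mentions twins in both treatments, but nothing ties a given lamb to a twin, and the tests treat every animal as independent.

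Agouti signalling protein is a small secreted protein that binds melanocortin receptors and blocks the hormones that POMC gives rise to, such as alpha-melanocyte stimulating hormone. In the hair follicle it turns pigment cells from dark to yellow or pale pigment, and in sheep the gene is best known for its part in coat colour. It is also expressed in the adipose tissue of several mammals, where it has been studied for effects on fat cells. Its close relative AGRP acts on melanocortin receptors of the brain in the control of feeding.

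Both probes were built on the same sheep ASIP transcript. The upstream probe starts at base 577 of it and the downstream probe 374 bases further on, at base 951. They are shown because each reads a different stretch of the transcript, and the longest run of letters they share is 8 bases. The upstream probe is printed whole and the first 30 of the 60 bases of the downstream probe are printed, with the first stop triplet in the frame that starts at base 1 in capitals. The upstream probe has no stop triplet in that frame.
ASIP upstream probe: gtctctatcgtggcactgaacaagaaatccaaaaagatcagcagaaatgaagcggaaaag
ASIP downstream probe: ggcttcaggaatctcagcTAGggttgggct

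All values below are normalised log2 intensities of the array unless raw intensity is named. One step of 1 is a doubling of the signal, and levels of different probes are not compared. The arrays lay on 4 slides, fetuses on slides 1 and 2 and lambs on slides 3 and 4, with both treatments on each, so age and slide cannot be told apart while treatment and slide can. Median foreground intensity ran from 129.5 to 229 per array in lambs and from 168 to 234 in fetuses, against a median local background of 34 to 46, and 70.4% to 83.5% of the probes were well above background by the scanner software's test. One Control fetus, replicate 2, stood apart from the other fetuses (mean correlation with them 0.963 against a median of 0.985 over the fetuses), and its ASIP level of 14.44 lay inside the range of its group. Fat cell markers were present throughout: the 13 measured genes of the adipocyte list, among them FABP4, LPL, PLIN1 and PPARG, were well above background on all 30 arrays.

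In Control fetuses the downstream probe read 14.32 at the lowest, 14.43 at the median and 14.88 at the highest. In CORT fetuses it read 13.20, 14.36 and 15.11. Every fetus was therefore bright, and the range of the CORT fetuses reached past that of the Control fetuses at both ends. The upstream probe ran from 12.43 over 12.66 to 13.17 in Control fetuses and from 11.23 over 12.67 to 13.34 in CORT fetuses, the same picture on another stretch of the transcript.

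In Control lambs the downstream probe read 7.31 and 7.37 in replicates 7 and 3, while the other 5 lambs lay between 13.64 and 15.41. In CORT lambs it read 7.24 in replicate 8, while the other 8 lambs lay between 14.05 and 14.86. No lamb of either treatment fell between 7.37 and 13.64, a gap of 6.27 on the log2 scale that is 3.54 times the whole range of the 13 bright lambs. The upstream probe split the same lambs, 6.36, 6.42 and 6.48 in the low ones against 11.81 to 13.70 in the 13 others. On its scale the gap was 5.33.

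**Figure D1:**
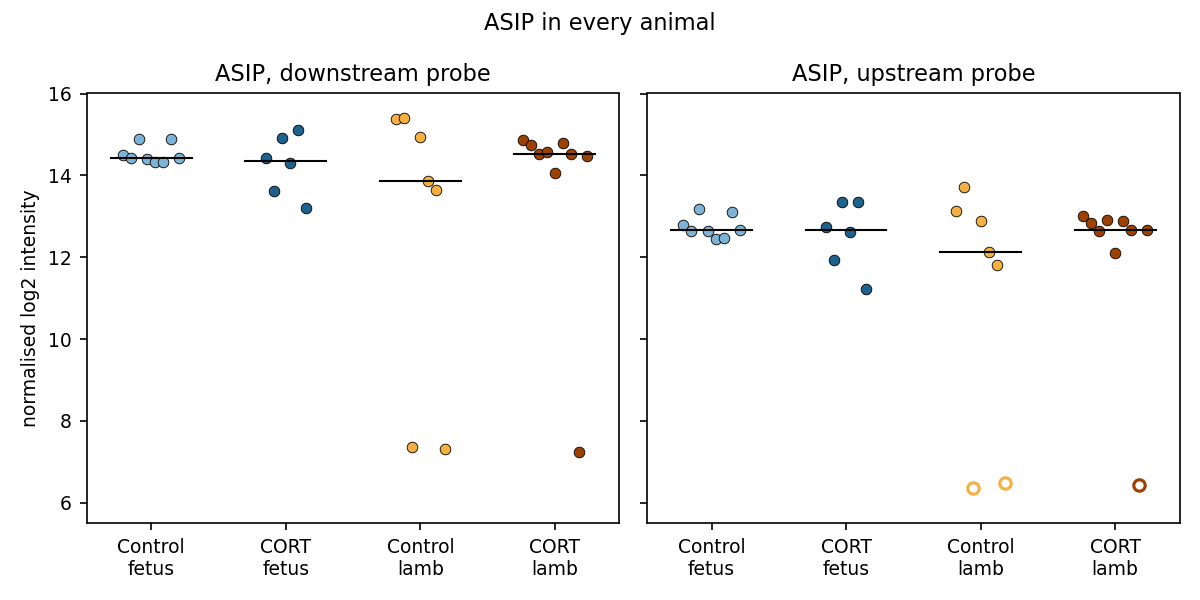
Normalised log2 intensity of the downstream (left) and upstream (right) ASIP probe in every animal of the 4 groups; each point is 1 animal, lines are group medians and open circles are values not well above background. 2 Control lambs and 1 CORT lamb lie near 7 (downstream) and 6.4 (upstream), and no fetus does.

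The raw signals show how far down these 3 lambs were. Before any correction the downstream probe gave 145, 119 and 122 intensity units in Control lamb 3, Control lamb 7 and CORT lamb 8, over local backgrounds of 33 to 41. In the 13 other lambs it gave 10255 to 42028 units. The software placed the downstream probe well above background in all 30 animals, the 3 low lambs included. The upstream probe gave 64.5 to 71.1 units in the 3 lambs and was not well above background in any of them, against 2745 to 11033 units in the other 13. On the downstream probe the dimmest of the 13 was 70.5-fold above the brightest of the 3 in raw foreground, 77.3-fold after normalisation and 126.8-fold in the software's processed signal. On the upstream probe it was at least 38.1-fold above after normalisation, where the low side is set at the lowest signal that was well above background on the same array if the probe lay under it. In bulk tissue fewer cells of a type and less RNA per cell cannot be told apart.

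The midpoint of the range over lambs was 11.32 on the downstream probe and 10.03 on the upstream probe. Both put 3 lambs below and 13 above, 2 of 7 Control lambs and 1 of 9 CORT lambs being low. Slide 3 held 1 of the low lambs and slide 4 held 2. Since the lowest bright lamb (13.64) and the highest low lamb (7.37) are far from the midpoint, its exact place moved no lamb. All 14 fetuses were above it.

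Among bright animals the probes followed each other. Over the 13 lambs above the midpoint Pearson's r between the probes was 0.96 (Spearman's rho 0.95), and over the 14 fetuses it was 0.99 (rho 0.97), given as a description of 2 readings of the same RNA. With treatments pooled, the spread of 0.52 (SD of the downstream probe over 13 lambs) was close in size to that of 0.51 over the 14 fetuses. Within each treatment the spreads differed. The SD was 0.84 in the 5 bright Control lambs against 0.23 in the 8 Control fetuses. It was 0.25 in the 8 bright CORT lambs against 0.74 in the 6 CORT fetuses. The bright Control lambs lay apart by slide, at 14.94 to 15.41 on slide 3 and at 13.64 and 13.87 on slide 4.

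**Figure D2:**
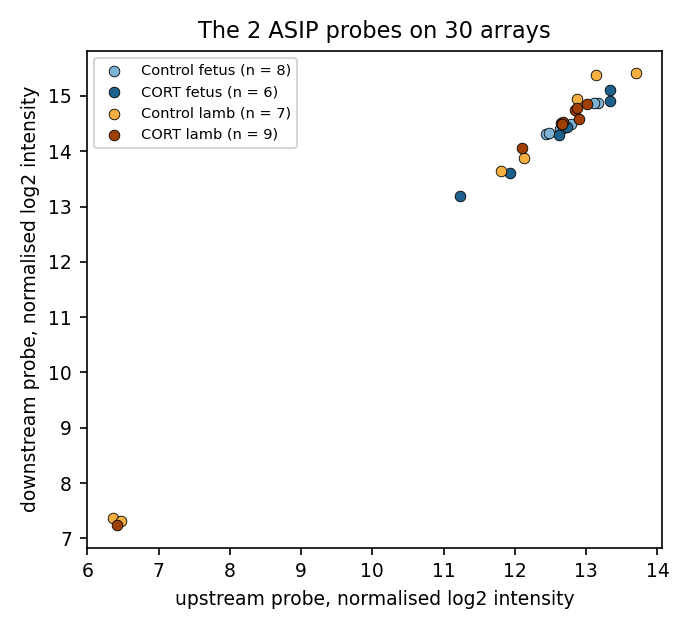
Downstream against upstream ASIP probe, normalised log2 intensity, on all 30 arrays; each point is 1 animal and colours mark the 4 groups. 27 animals form a line at the upper right and the 3 low lambs sit together at the lower left, apart on both probes.

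The treatment labels took no part in choosing ASIP, so the effect of maternal cortisol was tested. In lambs ASIP was 13.75 ± 2.45 (SD, n = 9) with CORT and 12.56 ± 3.63 (SD, n = 7) in Controls on the downstream probe. The difference of 1.19 (SE 1.37, 95% interval -1.68 to 4.07) did not pass the test (limma, adjusted p = 1.00 over all probes; exact two-sided permutation p = 0.424 over 11440 splits). It was 1.40 within slide 3 and 1.41 within slide 4, with 1 low lamb on slide 3 and 2 on slide 4. The upstream probe gave 1.09 (SE 1.18, exact permutation p = 0.393). Without Control lamb 7 the difference fell to 0.32, and without CORT lamb 8 it was 2.01. The medians of the bright lambs ran the other way, 14.94 in 5 Control and 14.55 in 8 CORT lambs on the downstream probe. On slide 3 the bright Control lambs (14.94 to 15.41) lay above the bright CORT lambs (14.51 to 14.86). On slide 4 the bright Control lambs (13.64 and 13.87) lay below the bright CORT lambs (14.05 to 14.78). Of all 12873 tested probes, 0% were called in this comparison by limma at an adjusted p of 0.05, and 458 had an unadjusted p under 0.05 (3.56%).

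In fetuses ASIP was 14.26 ± 0.74 (SD, n = 6) with CORT and 14.52 ± 0.23 (SD, n = 8) in Controls. The difference was -0.26 (SE 0.25, 95% interval -0.79 to 0.27) and did not pass the test (limma, adjusted p = 1.00; exact two-sided permutation p = 0.375 over 3003 splits). It was -0.23 within slide 1 and -0.29 within slide 2. The upstream probe gave -0.21 (SE 0.28, exact permutation p = 0.535). Without CORT fetus 6, the lowest fetus, the difference was -0.05. Here too limma called 0% of all probes, and 305 had an unadjusted p under 0.05 (2.37%).

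The difference between the effects of cortisol at both ages, lambs minus fetuses, was 1.45 (SE 1.56) for the downstream probe and did not pass limma's interaction test (adjusted p = 1.00). It sets 2 doses, and perhaps 2 schedules, against each other as well as 2 ages. The difference between the group means of Control lambs and Control fetuses, -1.96, includes the 2 low Control lambs. Of the other 5, 2 lay below and 3 above the range of the Control fetuses, 14.32 to 14.88. The 2 below were both on slide 4 and the 3 above all on slide 3.

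The partners of ASIP in melanocortin signalling came next. Of 33 genes of a melanocortin and pigment list 7 had a named probe here, and 5 of these were bright enough to test: POMC, AGRP, KIT, KITLG and TYR. The receptors could not be followed in this fat. MC2R, the receptor of adrenocorticotropin, was well above background on 1 of 30 arrays, and a probe that the array names MC1R, with a transcript that RefSeq now gives to MC5R, on 0 of 30. Neither was tested.

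POMC, the precursor of the melanocortin hormones, was well above background in all 30 animals. It measured 8.73 ± 0.31 (SD, n = 8) in Control fetuses, 8.47 ± 0.39 (n = 6) in CORT fetuses, 8.86 ± 0.25 (n = 7) in Control lambs and 8.88 ± 0.45 (n = 9) in CORT lambs. These groups overlapped throughout, and no comparison passed limma's test (adjusted p = 1.00 in both cortisol comparisons and 0.468 between Control lambs and Control fetuses). A second POMC probe was 0.31 lower in CORT than in Control fetuses, with an unadjusted p of 0.043 that did not survive adjustment (limma, adjusted p = 1.00). Between Control lambs and Control fetuses the probes differed in direction, 0.13 on the first and -0.24 on the second, neither past the test (limma, adjusted p = 0.468 and 0.0919). In the 3 lambs with low ASIP POMC read 8.59 to 9.14, inside the 8.33 to 9.66 of the other lambs.

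AGRP lay near background, well above it on 13 of 30 arrays with its better probe, and ran from 6.37 to 6.71 over the lambs. It read 6.59 to 6.71 in the 3 low lambs and 6.37 to 6.64 in the 13 others, of which 3 were at or above 6.59. On the other AGRP probe, well above background on 5 arrays, the 3 read 6.45 to 6.67, inside the 6.22 to 7.28 of the others. TYR, the tyrosinase that makes melanin in pigment cells, was well above background on 7 of 30 arrays and in 2 of 16 lambs. KIT, a receptor of pigment cells, mast cells and other cells, was well above background on 29 arrays at 6.51 to 7.14 in lambs. A second KIT probe was well above background on 2 of 30 arrays and in 1 of 16 lambs. KITLG, the ligand of KIT, was well above background on all 30 arrays, at 9.70 to 10.21 in the 3 low lambs and 9.14 to 10.29 in the others. None of these 4 genes separated the lambs with low ASIP from the rest, and only 0.156% of all tested probes did.

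Over the 5 tested genes of the list 0 were called in either direction by limma in CORT over Control lambs, in CORT over Control fetuses or in Control lambs over Control fetuses, and 0 had an unadjusted p under 0.05 with these probes. Their median difference was -0.06, -0.01 and 0.13 on the log2 scale, against 0.00, -0.01 and -0.01 over all probes tested. In the comparison of lambs with fetuses 41.6% of all probes were called and 48.7% had an unadjusted p under 0.05.

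In the RefSeq gene table the sheep ASIP gene lies between EIF2S2 and AHCY, with RALY, CHMP4B, ITCH and DYNLRB1 close by. Of a list of 25 genes around it, 2 had a named probe here, and both were tested. ACSS2, which makes acetyl-CoA from acetate, was 8.48 ± 0.17 (SD, n = 7) in Control lambs and 9.08 ± 0.30 (SD, n = 8) in Control fetuses. It fell by 0.60 (SE 0.12) with age (limma, adjusted p = 0.000817), one call among the 21.3% of probes lower in lambs, and its second probe gave -0.68. TRPC4AP did not pass the test, at -0.06 (SE 0.08, limma, adjusted p = 0.564). Neither gene was called with cortisol. In the 3 lambs with low ASIP ACSS2 read 8.16 to 8.58, within the 8.13 to 8.89 of the other lambs, and TRPC4AP 7.57 to 7.94, within 7.14 to 8.00. The nearer neighbours AHCY and ITCH were not analysed here.

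**Figure D3:**
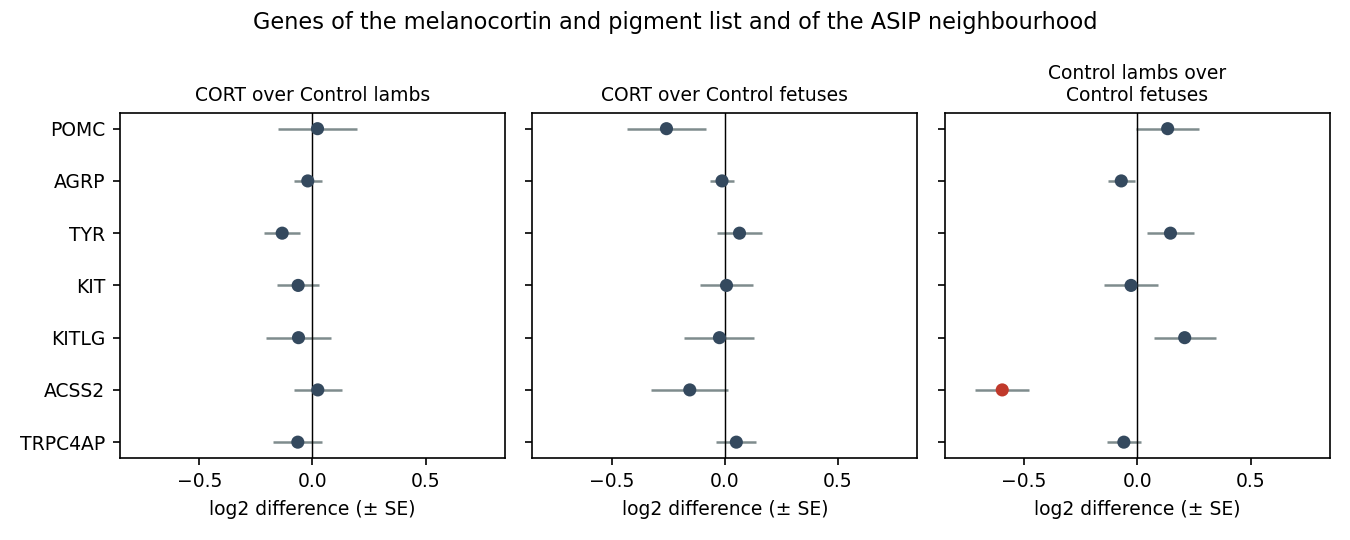
Log2 difference with its standard error for the 5 tested genes of the melanocortin and pigment list and the 2 tested neighbours of ASIP, in the 3 comparisons of 2 groups; red marks an adjusted p under 0.05. ACSS2, lower in Control lambs than in Control fetuses by 0.60, is the only red point.

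Lambs on the low and the high side of ASIP were then set side by side over all 12846 tested probes with a value in every lamb. The lambs were placed by ASIP itself, so this is a description without a test, and it gives for each probe whether the 3 lambs and the 13 overlap. Both ASIP probes and 18 others did not overlap, 0.156% of the probes in all. Of the 18, 6 were lower in the lambs with low ASIP (0.0623% of all probes with ASIP counted) and 12 were higher (0.0934%). Their gaps were narrow: the widest was 0.12 on the log2 scale and the median 0.02, against 6.27 and 5.33 for ASIP. No other tested probe showed a gap of the size seen for ASIP.

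**Figure D4:**
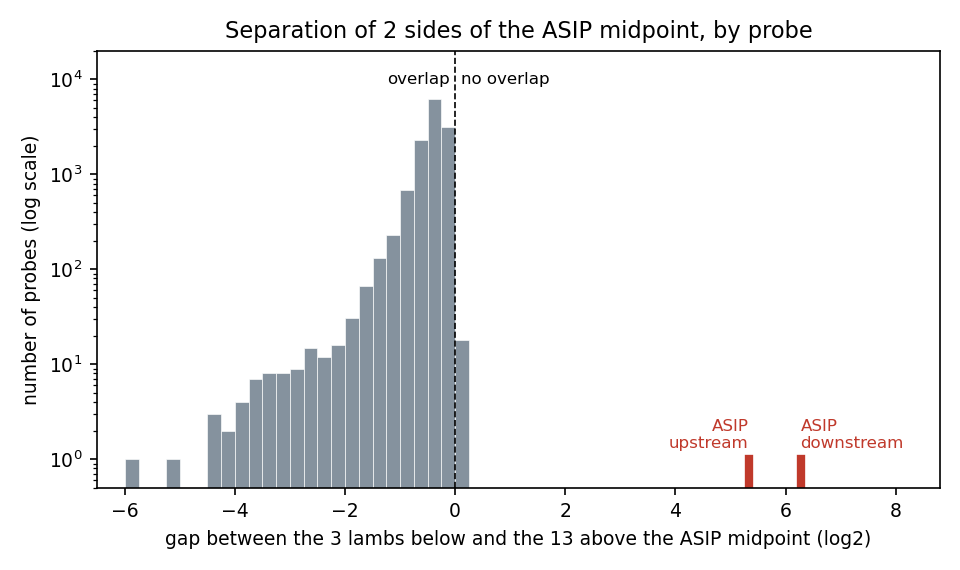
Number of tested probes (log scale) by the log2 gap between the 3 lambs below and the 13 above the ASIP midpoint. Probes right of 0 do not overlap. A negative value gives the least shift of 1 side that would part it from the other. The 18 other probes right of 0 lie within 0.12 of it, while the ASIP probes (red, 1 probe each) stand at 5.33 and 6.27.

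The widest of these narrow gaps belonged to angiopoietin-2, a ligand of the TIE2 receptor that loosens small blood vessels. With a probe named ANG-2 it read 7.49, 7.54 and 7.61 in the 3 low lambs and 6.88 to 7.37 in the other 13, a gap of 0.12. A second ANG-2 probe, which shares 59 of its bases with the first, read 7.62 to 7.73 against 7.00 to 7.57. A probe named ANGPT2 on another sequence, with 6 bases in common at most, read 7.26 to 7.42 against 6.93 to 7.17, a gap of 0.10. The second ANGPT2 probe overlapped, with 6.72 to 6.91 against 6.60 to 7.05. So 3 of 4 angiopoietin-2 probes, the ANG-2 pair being nearly 1 reading, were free of overlap and higher in the low lambs, where 0.0934% of all probes were. With the processed signal and with the deposited lamb values it was 2 of 4. Angiopoietin-2 was named because of these gaps, so its count beside the share of all probes is a description and no test. Among the fetuses, which all had bright ASIP, the first ANG-2 probe ran from 7.14 to 7.63.

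TIE1, an endothelial receptor of the same signalling system, followed in part. On its brighter probe 2 of the 3 low lambs, at 8.47 and 8.49, lay above the 13 others (7.86 to 8.18), and Control lamb 7 at 8.14 lay among them. PECAM1, a junction protein of endothelium, read 12.42 to 13.21 in the low lambs and 11.62 to 12.88 in the others. KDR, FLT1 and NOS3 lay inside the range of the 13 in all 3 low lambs. So 3 of the 5 tested endothelial markers were inside and none was free of overlap, against 0.156% of all probes. Over the 5 the mean level was 9.08 to 9.41 in the 3 lambs and 8.64 to 9.29 in the 13, and the part of endothelium in these values was not tested. Angiopoietin-2 itself did not pass limma's test in CORT over Control lambs (first ANG-2 probe -0.03, SE 0.10, adjusted p = 1.00) or in CORT over Control fetuses (0.01, SE 0.09, adjusted p = 1.00).

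**Figure D5:**
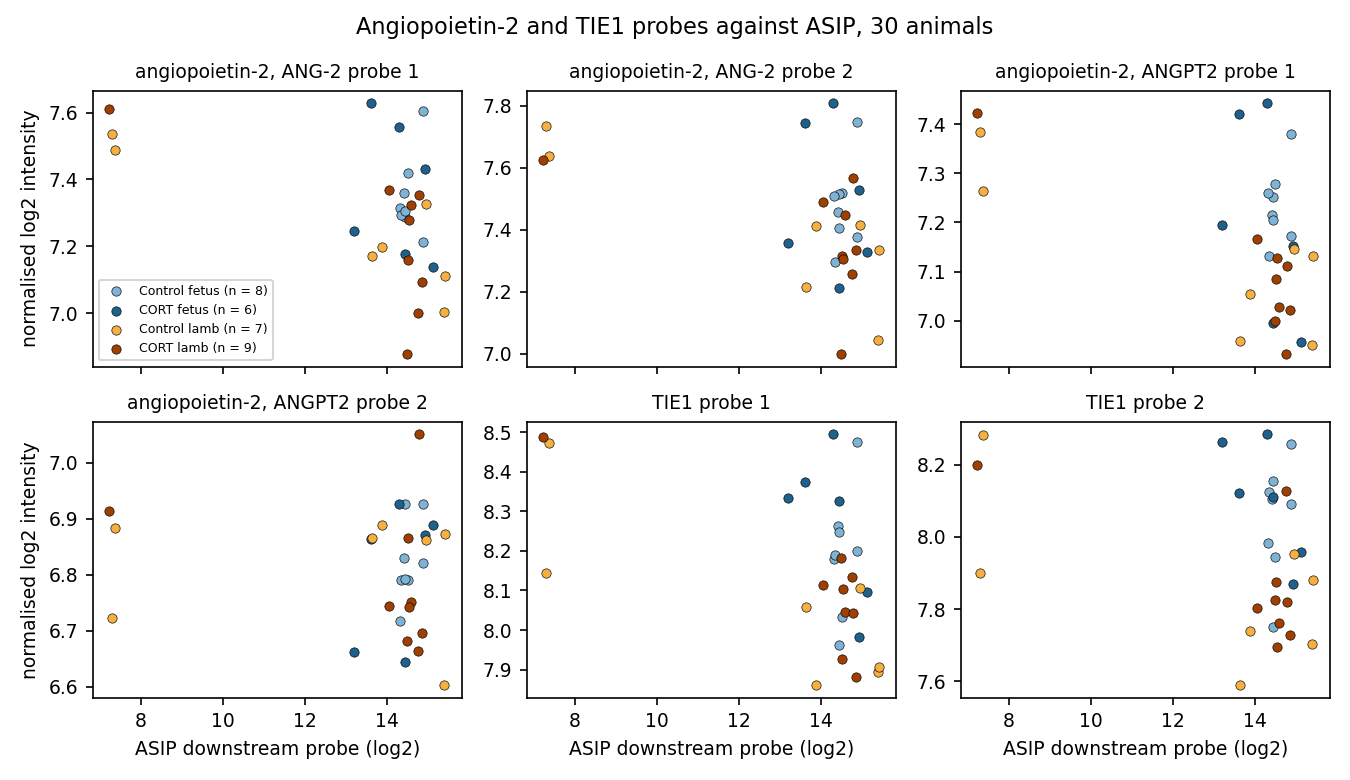
Normalised log2 intensity of 4 angiopoietin-2 and 2 TIE1 probes against the downstream ASIP probe in all 30 animals, coloured by group; each panel has its own vertical scale. The 3 lambs at the left lie at the top of the lambs on 3 of the angiopoietin-2 panels, at heights that fetuses with bright ASIP also reach.

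Of the other probes that did not overlap, 2 had a gene name. PTGER4, a prostaglandin E2 receptor, read 6.95 to 7.16 against 6.34 to 6.94, a gap of 0.01. A myosin heavy chain probe, OMYHC2A, read 6.55 to 6.94 against 6.22 to 6.54, a gap of 0.01; its signal cleared background in 3 of the 16 lambs. The other 13 were expressed sequence tags without a gene name here. The widest gap among them was 0.06 upward, and the widest downward 0.04.

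No gene on the lists of cell type markers was free of overlap between the 3 low lambs and the 13 others. Of all tested probes 0.156% were, so lists this short would seldom hold one. The share of all probes with the 3 low lambs inside the range of the 13 was not counted. For 11 of the 13 adipocyte genes all 3 low lambs lay inside the range of the other 13, and 0 of 13 were free of overlap. The mean over the adipocyte list was 10.37 to 10.88 in the 3 and 10.09 to 11.20 in the 13. FABP4, the fatty acid binding protein of fat cells, read 12.50 to 13.89 against 11.82 to 14.85, and PPARG, the receptor that drives fat cell formation, 14.14 to 14.48 against 13.25 to 14.72. All 5 brown adipocyte genes were inside, UCP1, the uncoupling protein of heat-producing fat, at 9.64 to 10.90 against 8.52 to 12.71. Of 2 melanocyte markers, TYR was inside and KIT overlapped. Of the plasma protein genes of the liver, ALB, APOA1 and TF lay in the upper part of the range in the 3 lambs, and TTR, AHSG and SERPINA1 did not. ALB, albumin, read 12.69 to 13.20 in the 3, against 7.44 to 14.37 with a median of 8.38 in the 13, of which 6 were at or above 12.69. APOA1, an apolipoprotein, read 10.65 to 11.56 against 9.83 to 10.84 with a median of 10.36, and 2 of the 13 were at or above 10.65. TF, transferrin, read 11.98 to 12.08 against 11.00 to 12.22, and 3 of the 13 were at or above 11.98. For TTR, AHSG and SERPINA1, 12, 11 and 13 of the 13 were at or above the lowest of the 3. These probes were well above background on 7, 6 and 6 of 30 arrays. Over the 6 tested genes of that list 4 were inside the range of the 13 in all 3 low lambs, the mean level was 9.09 to 9.41 in the 3 and 8.11 to 9.43 in the 13, and its part in the split was not tested. Of the remaining lists, 4 of 4 myeloid, 2 of 3 fibroblast, 2 of 3 lymphocyte, 1 of 2 striated muscle, 1 of 2 erythroid and 1 of 1 mesothelial genes were inside.

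The arrays of the 3 lambs did not stand apart in quality. Their median foreground was 157 to 183 against 129.5 to 229 in the 13 others, 72.9% to 78.1% of probes were well above background against 70.4% to 80.3%, and their mean correlation with the other lambs was 0.981 to 0.985 against 0.976 to 0.986.

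Genes with a pattern like ASIP were ranked by Pearson's r with the downstream probe over the 16 lambs, a measure that 3 lambs set, so r within the 13 bright lambs and over the 14 fetuses is given beside it. No named gene came close. The highest values over lambs ran from 0.48 to 0.59 and belonged to OXTR, TBP, CD80, NKX2.2, ITGAM, CD86, PSMA6, LOC443344, RPS27A and PER3. They share the 16 libraries and mostly low, narrow ranges: OXTR, the oxytocin receptor, at the head of the list, ran from 6.26 to 6.48 over the lambs, with 0 of them well above background. Among the 13 bright lambs its r was -0.43. TBP, a basal transcription factor, went from 0.57 over the lambs to -0.02 in the 13.

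The other 8 of these 10 kept their sign within the 13 bright lambs. There r was 0.54 for RPS27A, a ribosomal protein, 0.41 for PSMA6, a proteasome subunit, 0.39 for ITGAM, an integrin of myeloid cells, 0.21 for NKX2.2, 0.15 for PER3 and 0.14 for LOC443344. For CD80 and CD86, co-stimulatory molecules of immune cells, it was 0.50 and 0.53. Over the fetuses it was -0.08 for CD80 and 0.33 for CD86. Values of this size are common here, since 95% of all probes lay between -0.59 and 0.58 over the 13 lambs. The ITGAM probe was well above background in 2 of the 16 lambs.

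The lowest r over lambs, from -0.83 to -0.71, belonged to ANGPT2, OMYHC2A, TIE1, ANG-2 and CD40. Within the 13 bright lambs r was 0.05 for ANGPT2, 0.36 for OMYHC2A, -0.24 for TIE1, -0.25 for ANG-2 and -0.33 for CD40, a receptor of antigen-presenting cells. Without the 3 low lambs each value was nearer to 0 or of the other sign.

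Over the 14 fetuses the highest r of a named gene was 0.72, for a serine protease 23 precursor (LOC100037678), whose second probe gave 0.68. GUCA2A, the guanylin precursor, followed at 0.71 with signal well above background in 2 of 14 fetuses. FABP5, a fatty acid binding protein, and UGT1A9, a glucuronidating enzyme, both gave 0.67. Within the 13 bright lambs r was 0.44 for the protease, -0.06 for GUCA2A, 0.47 for FABP5 and 0.56 for UGT1A9. Over fetuses 95% of all probes lay between -0.57 and 0.49.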

How the data were processed

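Total RNA of EAT from 30 sheep was hybridised to a 1-colour Agilent sheep array. Per the file headers, each scanner file gives the mean foreground and median local background intensity of each spot (Feature Extraction 10.1.1.1). The authors also deposited a matrix of log2 values made with limma. Its 16 lamb columns follow the scanner intensities (Spearman's rho 0.998 to 1.00, column medians 7.78 to 7.79, 11828 probes; how the values were centred is not stated) and served as an alternative. Its 14 fetal columns do not (rho -0.0086 to -0.0042) and were not used.

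Background was corrected with limma 3.58.1 (R 4.3.3; normexp, offset 50), spots with outlier flags were removed, the 30 arrays were quantile normalised on the log2 scale and spots of a probe averaged. Probes at least 10% brighter than 95% of the 77 negative control spots on 6 or more arrays were tested (12873 of 15008; 1354 of them named through the array's annotation and RefSeq, assembly ARS-UI_Ramb_v3.0). lmFit and eBayes were fitted on the compared groups alone, two-sided, with Benjamini-Hochberg adjustment over all tested probes at 0.05. Scripts were tested on simulated data.

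ASIP, the gene lists and the comparisons were chosen with earlier results of these data known. Named are both ASIP probes, every measured gene of the melanocortin and neighbourhood lists (by its brightest probe), the 10 highest and 5 lowest named probes by r over lambs, the 5 highest over fetuses, and the 10 widest gaps between lambs, of which those without a gene name are given by their range. The second probes of POMC, AGRP, KIT, ACSS2, angiopoietin-2 and TIE1 were named after their values were seen. So were PTGER4 and the markers FABP4, PPARG, UCP1, PECAM1, KDR, FLT1, NOS3, ALB, APOA1, TF, TTR, AHSG and SERPINA1. Alternatives covered the signal, offset, normalisation, filter, slide and replicate blocks, the other probe and leaving out each animal. The number of arrays limits the precision.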

Additional observations from a re-analysis of the deposited data

Results flagged for a closer look

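A sample was singled out where its gap to the nearest of its group, as a share of the range of the group, passed the 95% limit of Dixon's test. Lamb values of ASIP and of genes chosen on the lambs were not searched, nor fetal values of genes chosen on the fetuses. Of 76 groups of values 6 passed; chance alone gives about 1 in 20.

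Control fetus 2, the fetus with the lowest mean correlation with the others, was high for OMYHC2A (10.59, next 6.62, share 0.921), KIT (7.44, next 6.98, share 0.580) and PSMA6 (13.95, next 13.65, share 0.679), and low for KITLG (8.99, next 9.65, share 0.679). Control fetus 6 was high for OXTR (7.87, next 6.79, share 0.717). Control lamb 1 was high for TRPC4AP (8.00, next 7.70, share 0.619).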

How the results depend on the processing

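The 3 low lambs remained 3 with the processed signal, offset 10, cyclic loess, the other ASIP probe and the deposited lamb values. Leaving out 1 animal at a time, the ASIP difference ran from 0.32 to 2.01 for CORT over Control lambs (lowest without Control lamb 7, highest without CORT lamb 8). It ran from -0.43 to -0.05 for CORT over Control fetuses and from 0.58 to 2.27 for the difference of both effects. For Control lambs less Control fetuses it ran from -2.44 to -1.09. None passed the threshold where a test was made (limma, adjusted p at least 0.956 with 1 animal left out, and at least 0.948 over all alternatives). Replicate numbers are shared between groups, but same-numbered animals did not all deviate together (correlation -0.06 to 0.41 over 7 pairs of lambs, 4 of 7 best with their own number; -0.19 to 0.41 over 6 pairs of fetuses, 1 of 6); with the replicate block the ASIP difference was 2.02 in lambs, -0.22 in fetuses, 2.57 for the difference of both effects and -1.98 between ages, no other call changing.

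The count of probes free of overlap was 20 in the report, 36 without the filter on dim probes, and 15 to 25 with other signals or normalisations; 8 of 15 with the processed signal and 16 of 25 with cyclic loess were among the 20. KITLG was called in Control lambs over Control fetuses with the processed signal (1 gene of the list, 0.40, limma, adjusted p = 0.045). At that setting limma called 5458 probes in this comparison, against 5351 of 12873 (41.6%) in the report. Likeness to ASIP turned sign within the 13 bright lambs for OXTR (-0.43), TBP (-0.018), ANGPT2 (0.052) and OMYHC2A (0.36); the cause was not tested. Dim probes limit what can be read: TYR, AGRP and the receptors lie at the edge of background.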
